A study of Mus musculus with 15 samples.

Results

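The transcripts described here are 10 immediate early genes of the AP-1 and Egr families and their relatives: the Fos family (Fos, Fosb, Fosl1 and Fosl2), the Jun family (Jun, Junb and Jund), the zinc finger factor Egr1, and the immediate early response genes Ier2 and Ier3. The members were picked by name, and all 10 were found among the 43432 gene identifiers of the count table. The cells were 266-6, a mouse pancreatic acinar line, grown in DMEM with 10% serum and analysed by RNA sequencing. Every group, DMSO included, spent 24 h in stripped medium before 24 h of exposure to ligand or vehicle. The 5 groups of 3 libraries received DMSO, AM580 (an agonist of the retinoic acid receptor RARα), CD3254 (an agonist of the retinoid X receptors, RXR), both agonists together (AM+CD), or 9-cis retinoic acid, a ligand of both receptor families. The line is a single tumour-derived line, the labels give no ligand concentrations, and they do not say whether replicates were separate cultures. The p-values therefore reflect only the variation among these libraries, part of which could be technical.

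Immediate early genes are transcribed within minutes of a stimulus from factors already present in the cell, and most of their messages are short-lived. Fos and Jun proteins pair through leucine zippers to form AP-1, which binds DNA at TPA response elements. Jun proteins can pair with each other, whereas Fos proteins need a partner. Egr1 is a zinc finger factor that binds GC-rich sites, and the mitogen-activated protein kinase ERK acts on Fos, Egr1 and Ier2 through serum response factor and its ternary complex partners. Liganded retinoid receptors have been described as antagonists of AP-1, which gives the ligand comparisons below their interest for these genes.

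The genes lie on 8 chromosomes of GRCm38 (GENCODE M21), and each count sums the reads of all exons of the gene. Ier3 (ENSMUSG00000003541) spans chromosome 17, 35821684 to 35822923. Fos (ENSMUSG00000021250) spans chromosome 12, 85473890 to 85477273, and Fosl2 (ENSMUSG00000029135) chromosome 5, 32135801 to 32157842. Junb (ENSMUSG00000052837) spans chromosome 8, 84974484 to 84978718, and Jun (ENSMUSG00000052684) chromosome 4, 95049034 to 95052222. Junb overlaps Prdx2 on the opposite strand, and Fosl1 overlaps Ccdc85b. Whether the counting used strand is not stated, so reads from the overlapping stretches cannot be told apart.

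Upstream windows are shown as the context of the genes on which the results turn: Ier3, Fos and Junb, which were higher in 1 set of libraries described below, and Jun, which did not separate that set. Each holds the 250 bases before the RefSeq transcription start (GRCm38.p6), 5′ to 3′ on the gene's strand, and capitals mark matches to searched motifs. The windows of Fosl2 and Jund were searched but are not shown, since the Fosl2 window lies inside the GENCODE gene and the Jund window ends before the GENCODE start without touching it. The Ier3 window ends at 35821712, past the GENCODE gene start at 35821684, so its last bases lie inside that gene.
Ier3, chr17:35821463-35821712, + strand: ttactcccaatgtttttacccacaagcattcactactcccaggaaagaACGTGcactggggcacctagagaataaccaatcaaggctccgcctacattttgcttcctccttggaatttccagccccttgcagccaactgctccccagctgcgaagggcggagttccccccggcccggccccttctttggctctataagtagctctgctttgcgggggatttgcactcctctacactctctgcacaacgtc
Fos, chr12:85473640-85473889, + strand: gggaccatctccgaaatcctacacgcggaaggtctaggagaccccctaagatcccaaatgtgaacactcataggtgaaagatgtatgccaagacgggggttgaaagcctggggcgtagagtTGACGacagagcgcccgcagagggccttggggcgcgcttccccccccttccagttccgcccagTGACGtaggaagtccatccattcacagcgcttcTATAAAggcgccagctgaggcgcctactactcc
Junb, chr8:84978749-84978998, - strand: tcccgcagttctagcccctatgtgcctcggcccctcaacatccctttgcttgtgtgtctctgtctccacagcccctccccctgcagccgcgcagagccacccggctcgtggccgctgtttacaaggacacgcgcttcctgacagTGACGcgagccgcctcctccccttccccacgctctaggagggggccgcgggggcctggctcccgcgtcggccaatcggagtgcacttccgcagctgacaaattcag
Jun, chr4:95052223-95052472, - strand: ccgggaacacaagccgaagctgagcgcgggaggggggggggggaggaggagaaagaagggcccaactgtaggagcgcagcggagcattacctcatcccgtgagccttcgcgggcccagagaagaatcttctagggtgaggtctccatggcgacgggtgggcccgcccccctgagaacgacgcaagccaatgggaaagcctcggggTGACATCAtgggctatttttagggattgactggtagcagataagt

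Both strands were searched for 8 motifs in the windows of 7 of the 10 genes. Egr1, Fosl1 and Ier2 were not searched, so nothing is said of motifs upstream of them. The Ier3 window holds the core of the hypoxia response element (ACGTG) with its first base at -202 (counted back from the RefSeq start). This motif was found in 16.6% of 32851 promoter windows of the same origin. The Jund window, which ends before the GENCODE start, holds the same core on the reverse strand at -83 and -74. Jund did not separate the library sets described below. The part of this core in the level of either gene was not tested. The Fos window holds the core of the cAMP response element (TGACG) at -129 and -66 and a TATA box (TATAAA) at -33. TGACG was present in 17.8% and TATAAA in 12.4% of all windows. The Junb window holds TGACG at -106. The Jun window holds the 8-base site bound by Jun and ATF2 (TGACNTCA, found as TGACATCA) at -45, against 7.49% of all windows. The Egr motif (GCGNGGGCG, in 4.70% of all windows) was found in the windows of Fosb and Fosl2 only. The AP-1 site (TGANTCA, 6.75% of all windows), the retinoid half-site (AGGTCA, 14.0%) and the CArG box of serum response factor (1.47%) were found in none of the 7 windows. These matches are descriptions of letters in short windows, and AP-1 and serum response elements can lie farther upstream.

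Depth ranged from 28501170 to 46801058 gene reads in 14 libraries and was 14600962 in 9-cis retinoic acid replicate 3, where 63.0% of reads had no gene. The first principal component of all genes tested carried 48.3% of the variance and set 5 libraries apart from the other 10: DMSO replicate 1, AM580 replicate 1, CD3254 replicate 1, AM+CD replicate 2 and 9-cis retinoic acid replicate 1. The labels name no batch or culture difference that matches this split. It holds 1 library of every treatment, and the same 5 libraries were set apart when the component was computed without the genes of any list used here. The split comes from these very counts, so levels between the sets are described without a p-value. In bulk RNA a change in the make-up of the cells and a change of RNA per cell cannot be told apart. Of the acinar markers, Ctrb1 stood at 3841 to 7201 CPM (the gene's counts relative to the TMM-scaled library size) and Cela1 at 777 to 3275 CPM, but the amylase gene Amy2a1 was at most 0.130 CPM and Pnlip at most 0.646 CPM. Of markers of other cell types, Ptprc (blood) was at most 0.107 CPM and Ins1 (beta cell) was at 0 in all libraries, but Cd68 (macrophage) stood at 4.26 to 23.9 CPM, Chga (endocrine) at 166 to 447 CPM and Pdgfrb (fibroblast and pericyte) at 155 to 342 CPM.

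The main division among the 10 genes was between the 5 libraries and the other 10, not between ligands. In the 5-library set Ier3, Fosl2, Fos, Junb, Fosb and Egr1 were above both other libraries of their treatment in all 5 treatments, and also above each of the 10 other libraries. Jun, Jund and Fosl1 were mixed, and Ier2 was lower in 4 of 5 treatments. The count of 6 of 10 above within every treatment stands beside 18.4% of 16736 genes tested, and 0 of 10 below beside 17.5%. Against each of the 10 other libraries, 6 of 10 lay above, beside 13.4% of genes, and 0 lay below, beside 12.6%. All 10 genes passed the filter on low counts, and the median difference over them was 0.97 on the log2 scale, against 0.0014 over all genes tested. Other measures moved with the same division. Mitochondrial genes took 1.32% to 2.13% of gene reads in the 5-library set and 2.40% to 3.46% in the others, without overlap. Of the markers of other cell types, medians in the 5-library set and the others were 3.80 and 0.612 CPM for Thy1, 5.72 and 0.898 CPM for Krt19, 6.15 and 1.58 CPM for Tek, and 12.5 and 5.04 CPM for Cd68. Col1a2 at 0.645 against 5.30 CPM, Sox9 at 19.2 against 41.8 CPM and Kdr at 0.609 against 2.15 CPM were lower. Within every treatment 3 of 6 tested fibroblast markers were above and 1 below, 0 of 6 ductal above and 1 below, 1 of 4 endothelial above and 1 below, 1 of 2 macrophage and blood markers above and 0 below, and 0 of 3 endocrine above and 1 below. The part of these measures in the members' values was not tested.

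**Figure D1:**
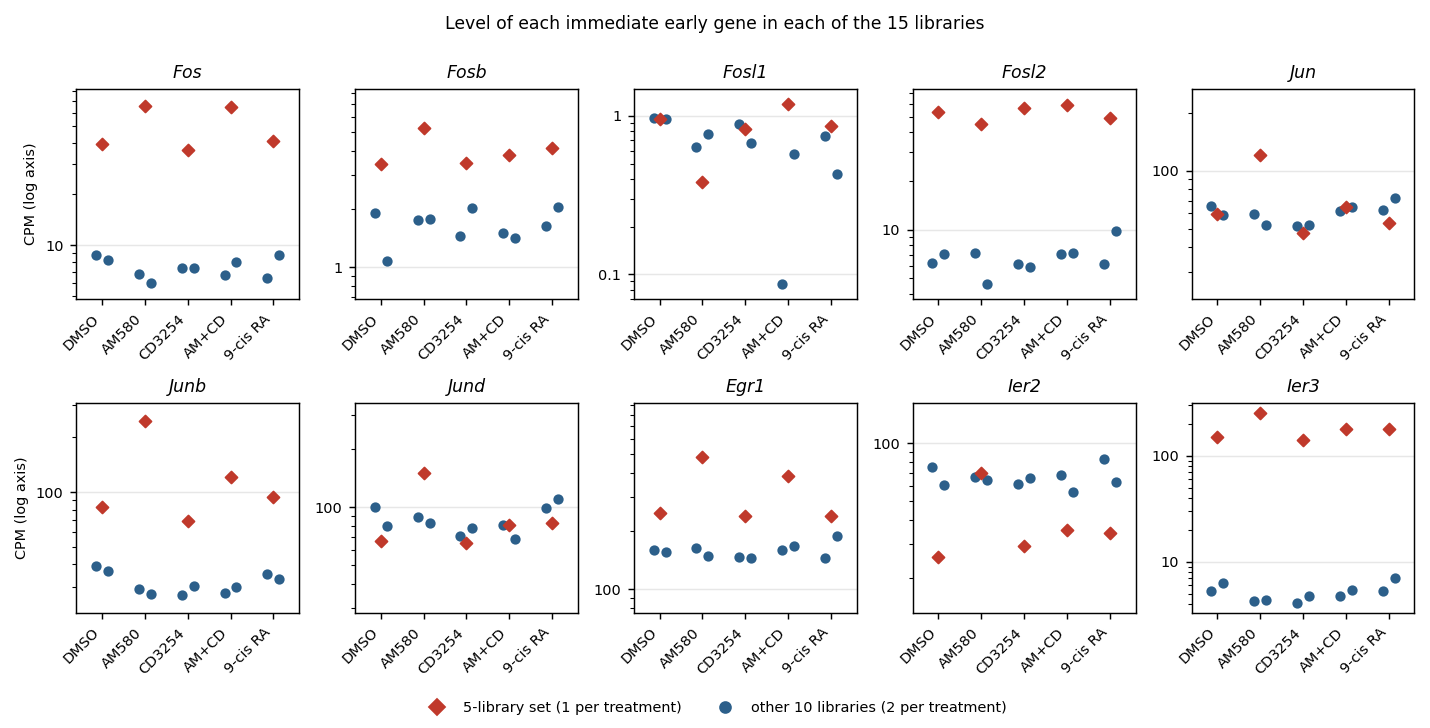
Level of each gene (CPM, log axis) in each of the 15 libraries, by treatment. Red diamonds are the 5 libraries set apart by the first principal component and blue circles the other 10. For Ier3 the red points lie between 142 and 253 CPM and the blue between 4.11 and 7.01, while for Jun the colours overlap.

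Ier3, which encodes a small stress-inducible protein linked to cell survival and ERK signalling, showed the widest gap of the 10. In DMSO it stood at 149 CPM in replicate 1 against 5.31 and 6.31 CPM, and in AM580 at 253 CPM in replicate 1 against 4.30 and 4.32 CPM. In CD3254 it stood at 142 CPM in replicate 1 against 4.11 and 4.79 CPM. The pattern repeated in AM+CD, where replicate 2 held 181 CPM and the others 4.78 and 5.47 CPM, and in 9-cis retinoic acid, at 179 CPM in replicate 1 against 5.26 and 7.01 CPM. The sets did not overlap in any treatment, and the medians differed 35.7-fold. The log2 difference within a treatment ranged from 4.68 to 5.86, and only 7 of 16736 genes had a larger median difference.

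Among the Fos family, whose proteins bind DNA only as heterodimers, Fos and Fosl2 followed the same division. Fos, the prototype of the family, stood at 39.4, 66.0, 36.2, 64.3 and 40.6 CPM in the 5-library set (in the order DMSO, AM580, CD3254, AM+CD and 9-cis retinoic acid, used for all lists of 5 below). The other 10 libraries held 6.02 to 8.72 CPM of Fos with a median of 7.36, so the sets were separate and their medians differed 5.52-fold. Fosl2, which encodes Fra-2, stood at 53.0, 44.9, 56.7, 59.2 and 48.7 CPM against 4.64 to 9.84 CPM, a fold of 8.0 between medians. Its log2 difference ran from 2.64 to 3.23 over the treatments. Fosb had 43 to 180 counts per library and stood at 3.42, 5.28, 3.47, 3.83 and 4.15 CPM against 1.08 to 2.05 CPM, or 2.25-fold between medians.

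Fosl1, which encodes Fra-1, did not separate the sets. It had only 3 to 40 counts per library, with 0.382 to 1.2 CPM in the 5-library set and 0.0869 to 0.966 CPM in the others. Its log2 difference was 0.00 in DMSO, -0.80 in AM580, 0.08 in CD3254, 2.06 in AM+CD and 0.57 in 9-cis retinoic acid. At 3 counts in AM+CD replicate 1, the largest of these differences rests on very few reads.

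The Jun family, which supplies the obligate partners of Fos proteins, was divided by member. Junb, often described as an early-induced brake on Jun activity, stood at 82.5, 247, 69.3, 121 and 94.3 CPM in the 5-library set against 27.0 to 39.4 CPM in the other 10. Its medians differed 3.12-fold, and the sets did not overlap. Prdx2, the gene that overlaps Junb, ranged from 241 to 474 CPM and from 199 to 302 CPM in the same sets. Jun stood at 59.3, 120, 47.5, 64.5 and 53.4 CPM against 51.8 to 72.4 CPM, so that only AM580 replicate 1 lay above the range of the others. Jund, the constitutive member of the family, stood at 67.2, 151, 65.1, 81.2 and 82.6 CPM against 68.1 to 110 CPM. Without AM580 replicate 1 the differences of Jun ran from -0.34 to 0.03 and those of Jund from -0.41 to 0.13 on the log2 scale.

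Egr1 (ENSMUSG00000038418), a factor induced by growth signals and stress, stood at 249, 482, 240, 388 and 240 CPM in the 5-library set. The other 10 libraries held 144 to 190 CPM, a smaller gap of 1.58-fold between medians but again without overlap. Ier2, a nuclear immediate early protein, ran the other way. It stood at 25.7, 70.1, 29.5, 35.6 and 34.5 CPM against 55.9 to 83.5 CPM, and its medians were 1.90-fold lower in the 5-library set. Its log2 difference was between -1.40 and -0.80 in 4 treatments and 0.09 in AM580. Without AM580 replicate 1, Ier2 in the 5-library set lay below all other libraries.

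**Figure D2:**
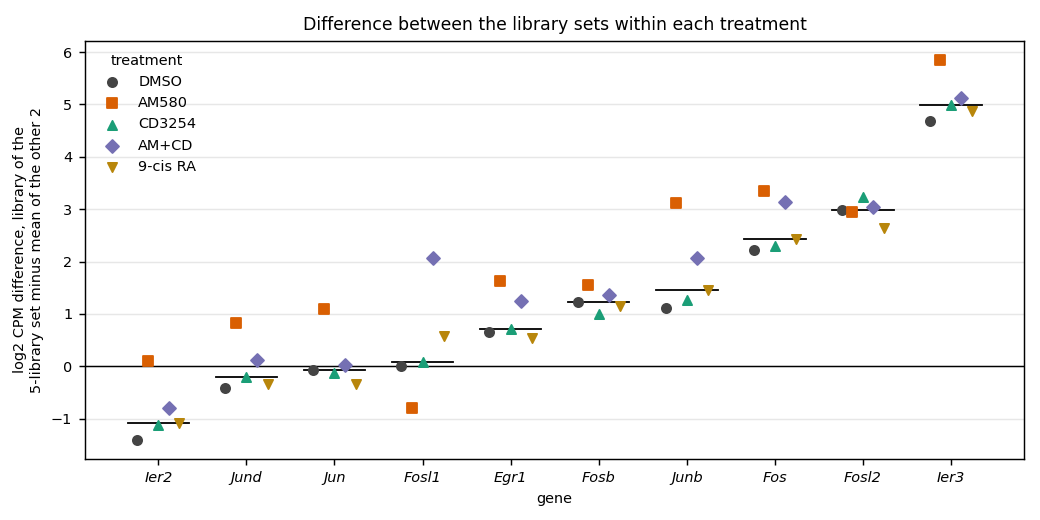
Difference in log2 CPM between the library of the 5-library set and the mean of the other 2 libraries of its treatment, for each gene and treatment. Short black bars are medians over the 5 treatments. Ier3 lies at 4.68 to 5.86 and Ier2 at -1.40 to 0.09, and AM580 gives the highest point for Junb, Jun, Jund, Egr1, Fos, Fosb, Ier2 and Ier3.

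AM580 replicate 1 was the highest of all 15 libraries for 7 of the 10 genes: Fos, Fosb, Jun, Junb, Jund, Egr1 and Ier3. The share of all genes tested that peaked in this library was not counted, so the 7 cannot be read as a trait of these genes. On the first principal component it lay farthest out, at -90.0, before AM+CD replicate 2 at -71.8. Over the genes tested, the deviation in log2 CPM of AM580 replicate 1 from the median of its own library set was set against the GC content of the transcript. The Spearman correlation was 0.567 (12278 protein-coding genes). The other libraries ranged from -0.373 to 0.467. With exonic length in place of GC content the correlation was -0.557 in AM580 replicate 1 (12283 genes). The other libraries ranged from -0.584 to 0.539 for length. Exonic length of the members ran from 1131 bases (Ier3) to 9680 bases (Fosl2). Jund, Junb and Ier2 transcripts, with 67.2%, 62.6% and 60.9% GC, were richer in GC than 99.9%, 98.7% and 96.9% of those genes. The remaining members ranked lower, above 91.0% (Fosl1), 86.8% (Egr1), 80.5% (Fosb), 78.3% (Jun), 72.5% (Ier3), 65.5% (Fosl2) and 59.45% (Fos). Fosl1 and Fosl2 had their lowest values of the 5-library set in AM580 replicate 1, at 0.382 and 44.9 CPM. The part of base composition or of transcript length in the AM580 values was not tested. With this library and the shallow replicate 3 of 9-cis retinoic acid left out, AM580 dropped out of the comparison between the sets. In every remaining treatment 6 members lay above and 1, Ier2, lay below. Leaving out libraries only removes conditions, so the count above could not fall.

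Levels between genes were compared per kilobase of exon (CPM per kb). In the 10-library set the order by median was Jund at 49.2, Ier2 at 43.1, Egr1 at 35.2, Jun at 19.1, Junb at 13.1, Ier3 at 4.44, Fos at 3.13, Fosl2 at 0.685, Fosl1 at 0.348 and Fosb at 0.273 CPM per kb. Jund was above Ier2 in 10 of 10 libraries although their ranges overlapped, Ier2 was above Egr1 in 8 of 10, and Fosl1 above Fosb in 8 of 10. In the 5-library set Ier3 came first at 158 CPM per kb, above Egr1 at 55.5 in 5 of 5 libraries without overlap. Jund followed at 48.7 and Junb at 41.0, and these did not separate, with Jund higher in 3 of 5 libraries. Ier2 at 22.7, Jun at 18.6 and Fos at 17.3 CPM per kb also overlapped, and Fosl2 at 5.48, Fosb at 0.614 and Fosl1 at 0.427 came last.

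Summed per kilobase, Jun family transcripts outnumbered Fos family transcripts in every library. The ratio of the Fos to the Jun family was 0.245, 0.143, 0.264, 0.285 and 0.218 in the 5-library set. In the other 10 libraries it ran from 0.0422 to 0.0629, with a median of 0.0517. Fos made up 68.3% to 83.2% of the Fos family over all libraries. Within the Jun family, Junb made up 35.8% to 45.6% in the 5-library set and 14.0% to 19.3% in the others, while Jund made up 38.4% to 46.4% against 54.9% to 63.9%. These are shares of transcripts, not of proteins or dimers.

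**Figure D3:**
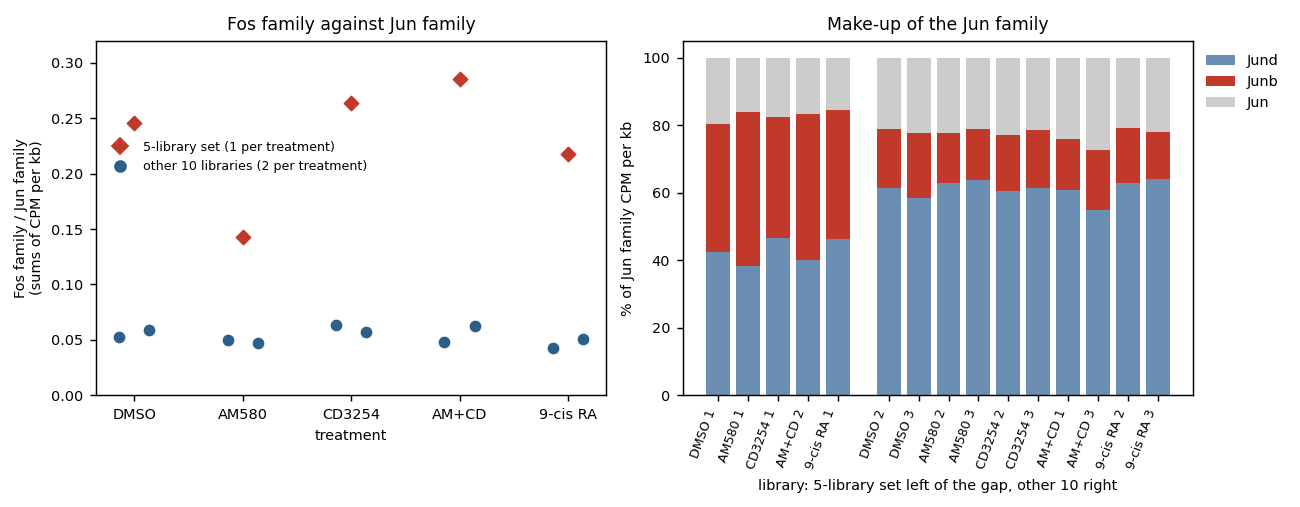
Left, the ratio of summed Fos family to summed Jun family transcripts (CPM per kb) in each library, by treatment. The 5-library set (red) lies between 0.143 and 0.285 and the other 10 (blue) between 0.0422 and 0.0629. Right, the share of Jund, Junb and Jun in the Jun family of each library, with Junb at 35.8% to 45.6% left of the gap and 14.0% to 19.3% right of it.

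The ligand comparisons asked whether an RARα agonist, an RXR agonist, both or a pan-agonist changed these genes after 24 h. By edgeR's quasi-likelihood test with treatment as the only term, 0 of 10 genes passed an adjusted p (FDR) of 0.05 in any of 8 contrasts. An unadjusted p under 0.05 was found for 0 of 10, beside 0.454% to 1.5% of all genes tested, depending on the contrast. Over all 16736 genes, 0% were called for AM580, CD3254 or 9-cis retinoic acid against DMSO, and 0.0179% for AM+CD against DMSO. The contrasts of AM+CD with AM580 and with CD3254, of 9-cis retinoic acid with AM+CD, and the interaction of AM580 with CD3254 each had 0% called. DESeq2 gave no p-value for Ier3, Fos and Junb, and called 0 of the other 7 members in each contrast. Of these, 1 had an unadjusted p under 0.05, Jund in AM+CD against AM580, a contrast where 2.03% of all genes did so by DESeq2. Of the 16617 genes to which DESeq2 gave a p-value it called 0.0602% for AM580, 0% for CD3254, 0.114% for AM+CD and 0.0602% for 9-cis retinoic acid against DMSO. It called 0.00602% for AM+CD against AM580, 0.0481% for AM+CD against CD3254, and 0% for 9-cis retinoic acid against AM+CD and for the interaction. The 4 contrasts against DMSO share the DMSO libraries.

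In that fit the spread between the library sets fell into the error. Junb stood at 247, 29.2 and 27.4 CPM in AM580 against 82.5, 39.4 and 36.6 CPM in DMSO. The ranges overlapped, and the fitted log2 change was 0.94 ± 0.84 (SE, edgeR FDR = 1.00). The interval for Ier3 in the same contrast ran from -3.69 to 5.08 on the log2 scale. A fit with the library set as a term had smaller SEs. Their median over the 10 genes against DMSO went from between 0.603 and 0.610 to between 0.232 and 0.234. The set was read from these very counts but enters the fit as known, so SEs, p-values and intervals with the term may be too small. The term also takes each ligand effect as equal in both sets.

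With the library set term, 0 of 10 genes passed the threshold in any of the 8 contrasts, by edgeR or by DESeq2. Of all genes, edgeR with the term called 0.0299% for AM580, 0.0239% for CD3254, 0.125% for AM+CD and 0.0299% for 9-cis retinoic acid against DMSO. The shares were 0.012% for AM+CD against AM580, 0.0299% for AM+CD against CD3254, 0.00598% for 9-cis retinoic acid against AM+CD and 0% for the interaction. DESeq2 with the term called 0.102%, 0.0777%, 0.562% and 0.137% for the 4 ligand treatments against DMSO, and 0.0777%, 0.102%, 0.0359% and 0% for the other 4 contrasts in the same order. In edgeR's fit with the term Jund in AM+CD against AM580 was the 1 member at an unadjusted p under 0.05 over the 8 contrasts. Its log2 change was -0.48 ± 0.22 (edgeR FDR = 0.608), and 5.62% of all genes had such a p in that contrast. Jund stood at 151 CPM in AM580 replicate 1 against 88.5 and 83.0 CPM in replicates 2 and 3. In a fit of the 10-library set alone, which lacks AM580 replicate 1, the change was -0.20 ± 0.16. For the 4 contrasts with DMSO the 95% intervals of the 9 genes other than Fosl1 lay between -1.05 and 1.04 on the log2 scale. Changes of these 9 genes beyond 2.07-fold downward or 2.05-fold upward lay outside the intervals, and smaller changes may have gone undetected. Since the term was read from the same counts, these intervals may be too narrow. The interval of Fosl1, which had the fewest counts, reached -1.94 in AM+CD.

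An edgeR fit of the 10-library set alone, with 2 libraries a group, also called 0 of 10 in each contrast. Of 16737 genes it called 0.0179%, 0%, 0.0777% and 0.0239% for the 4 ligand treatments against DMSO, and 0.0119%, 0.0299%, 0% and 0% for the other 4 contrasts in the same order. Junb was at an unadjusted p under 0.05 in 3 of these contrasts. Its log2 change was -0.43 ± 0.13 in AM580 (edgeR FDR = 1.00), -0.41 ± 0.13 in CD3254 (edgeR FDR = 1.00) and -0.39 ± 0.14 in AM+CD (edgeR FDR = 0.613) against DMSO. None of these passed the adjustment, and all 3 contrasts share the same 2 DMSO libraries. In AM+CD against DMSO Fosl1 also had an unadjusted p under 0.05, as did Jund in 9-cis retinoic acid against AM+CD, and Jun and Junb in the interaction. Of all genes in this fit, 3.42%, 3.27% and 6.72% had such a p in AM580, CD3254 and AM+CD against DMSO. The shares were 12.4% for 9-cis retinoic acid against AM+CD and 1.99% for the interaction.

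**Figure D4:**
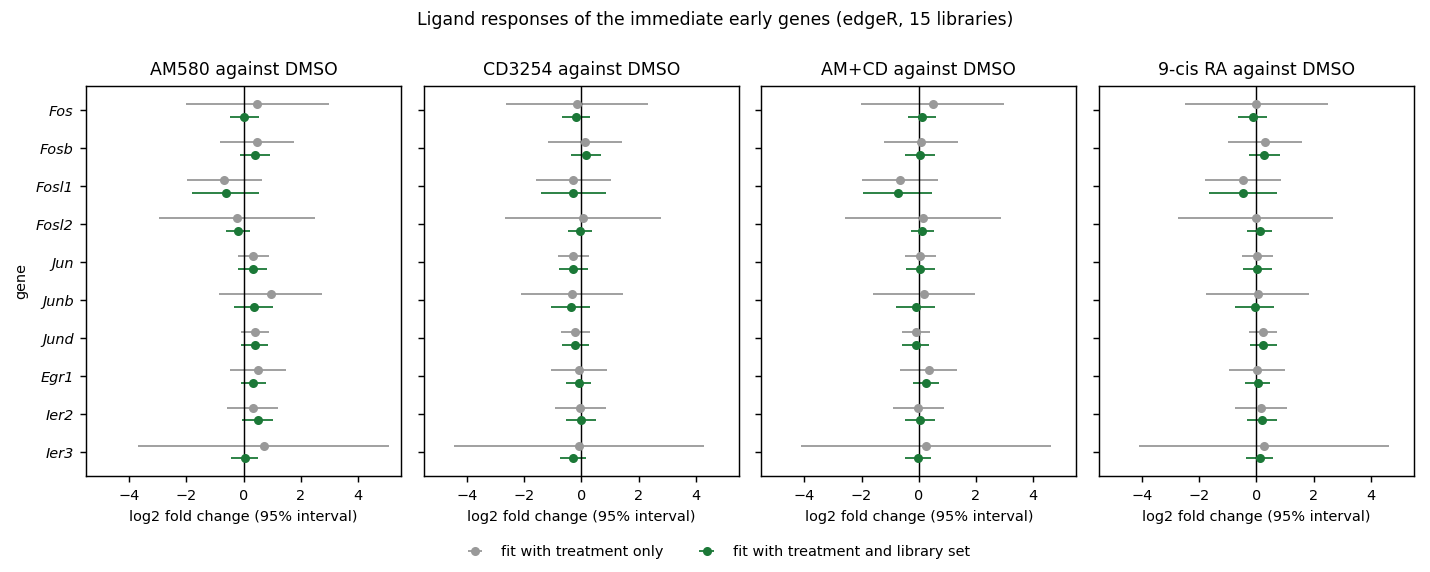
Fitted log2 fold change of each gene against DMSO with its 95% interval, from edgeR over 15 libraries, for 4 ligand treatments. Grey is the fit with treatment only and green the fit that adds the library set. Every interval includes 0, and for Ier3 in AM580 the grey interval runs from -3.69 to 5.08 and the green from -0.43 to 0.49.

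The sign of the AM580 values depended on 1 library. With all 15 libraries and the term, 8 of 10 genes had values above 0 for AM580, with a median of 0.32, and without AM580 replicate 1 the count was 3 of 10 and the median -0.17. Within the sets the difference from DMSO was 1.58 for Junb in the 5-library set and -0.43 in the 10-library set, and for Jun 1.02 and -0.15. Ier2 gave 1.45 and -0.05, while Fosb, Fosl1 and Fosl2 kept their sign. In CD3254 the sets had the same sign for Junb (-0.25 and -0.41) and Ier3 (-0.07 and -0.38). Fosl2 and Ier2 had opposite signs. In 9-cis retinoic acid Fosb gave 0.27 and 0.34 and Jund 0.30 and 0.22. Signs were opposite there for Fos, Fosl2, Jun, Junb (0.19 and -0.15) and Egr1. In AM+CD they were opposite for Fos (0.71 and -0.22), Fosl1, Junb (0.55 and -0.39), Jund, Ier2 and Ier3. Fosb, Fosl2, Jun and Egr1 kept their sign in AM+CD. Each value of the 5-library set is 1 library minus 1 library.

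Of 6 retinoid control genes, 2, 4, 5 and 3 were called higher in AM580, CD3254, AM+CD and 9-cis retinoic acid against DMSO with the library set term. Without it 0, 0, 1 and 0 were called. These genes were chosen with earlier results of these data known, so their calls are no independent check of the fits. With the term Cyp26b1, whose enzyme degrades retinoic acid, rose by 3.73 ± 0.36 (log2 ± SE) in AM580 (edgeR FDR = 0.000594), 2.99 ± 0.37 in CD3254 (FDR = 0.0105), 7.98 ± 0.38 in AM+CD (FDR = 9.69e-08) and 4.94 ± 0.36 in 9-cis retinoic acid (FDR = 3.40e-05). Without the term its edgeR FDR was 1.00, 1.00, 0.0240 and 0.550 in the same order. Of 17 tested genes of a list of reported AP-1 targets, 1 was called in a contrast with DMSO: Itga2, an integrin subunit. Itga2 rose by 4.25 ± 0.56 in AM+CD with the term (edgeR FDR = 0.00475), and stood at 4.19 ± 0.70 without it (FDR = 0.0810). This list too was chosen with earlier results of these data known, and a part of AP-1 in the Itga2 values was not tested. None of 30 other immediate early genes, 12 genes of ERK feedback, 16 MAP kinase genes, 8 genes of serum response factor and its partners or 13 bZIP partners was called by edgeR in those contrasts in either fit. Of the 30 other immediate early genes, 5, 2, 5 and 2 had an unadjusted p under 0.05 for AM580, CD3254, AM+CD and 9-cis retinoic acid in the fit with the term. Of all genes tested, 4.21%, 1.98%, 4.79% and 3.97% did so.

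Between the library sets the other immediate early genes went both ways. Of 30 tested, 13 were higher in the 5-library set in all 5 treatments and 6 lower, and 11 did neither, with a median log2 difference of 0.26. Maff, a small Maf factor, had medians of 124 against 16 CPM, Csrnp1 of 9.43 against 1.68 CPM and Ccn2, a secreted matricellular protein, of 1.83 against 0.605 CPM. At the other end Plk2, a polo-like kinase, had medians of 52.8 against 288 CPM, Myc of 31.9 against 143 CPM and Klf2 of 2.2 against 7.77 CPM. Myc and Ier2 were thus lower in the libraries where Fos and Ier3 were higher, except Ier2 in AM580.

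The log2 differences of 12 genes of ERK feedback and output lay between -0.51 and 0.67, with 1 gene higher in all treatments (Dusp7) and 1 lower (Etv1). Dusp6, a phosphatase for ERK whose message tracks ERK activity, had medians of 28.9 against 44.5 CPM, Spred1 of 56.5 against 71.3 CPM and Etv1 of 12.6 against 17.6 CPM. Dusp4 had medians of 101 against 83.2 CPM, Dusp7 of 25.5 against 19.6 CPM and Spry2 of 41.7 against 43.3 CPM. Of 16 MAP kinases and upstream genes 5 were higher and 4 lower, with Map2k1 at a log2 difference of 0.84, Mapk3 at 0.69 and Braf at 0.65 as the highest. Mapk14, which encodes the stress kinase p38α, had the lowest at -0.74, before Map2k4 at -0.62. Of 8 genes of serum response factor and its partners 0 were higher and 1 lower, the coactivator Mrtfb at -0.72.

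Among 13 bZIP partners tested, 4 were higher and 1 lower. Ddit3, the stress factor CHOP, had a log2 difference of 0.80 and Atf7 of 0.69. Atf4 was lower, with medians of 742 against 1049 CPM, and Jdp2 and Batf3 had differences of -0.37 and -0.36. Of 17 reported AP-1 targets 7 were higher and 3 lower in all treatments. Spp1, which encodes osteopontin, had medians of 35.1 against 4.75 CPM, Vegfa of 620 against 139 CPM and Hmox1, haem oxygenase, of 91.7 against 23.5 CPM. Mmp14, a membrane-type metalloproteinase, had medians of 1.85 against 10.9 CPM, Lif of 1.06 against 2.2 CPM and Cd44 of 46.2 against 67.9 CPM.

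Genes induced by low oxygen moved with the same division. Of 12 such genes 12 were higher in the 5-library set in all 5 treatments, with a median log2 difference of 3.26. Their summed level was 6922 to 10093 CPM in the 5-library set and 1166 to 1728 CPM in the others. Adm, adrenomedullin, had medians of 21.8 against 0.214 CPM, Ankrd37 of 64.3 against 1.35 CPM and the glucose transporter gene Slc2a1 of 300 against 11.9 CPM. The smallest differences were 1.83 for Ldha, 1.99 for Pdk1 and 2.13 for Vegfa, which is also on the AP-1 target list. Their part in the Ier3 and Fos values was not tested. Of 17 acinar markers tested 2 were higher and 5 lower, with Rbpjl at 111 against 272 CPM, Ptf1a at 26.1 against 64.1 CPM and Cel at 5.65 against 18.0 CPM between medians. Bhlha15 was higher, at 66.3 against 30.9 CPM.

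**Figure D5:**
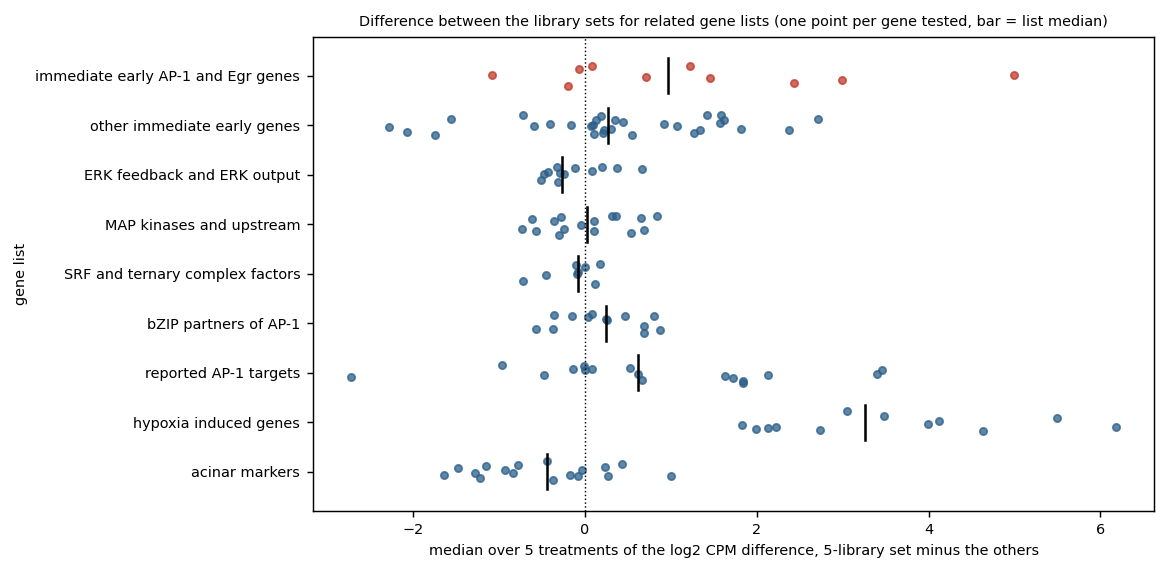
Median over 5 treatments of the log2 CPM difference between the library sets (5-library set minus the others) for each tested gene of 9 lists. Points are genes and black bars list medians. The 10 immediate early AP-1 and Egr genes (red) spread from -1.08 to 4.99 around 0.97, ERK feedback genes lie around -0.27, and all hypoxia-induced genes lie above 0 around 3.26.

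Within the 10-library set the coefficients of variation of the 10 genes ran from 8.57% for Egr1 and 11.1% for Jun up to 20% for Fosl2 and 39.7% for Fosl1. Of 45 pairs of members 31 had a Pearson correlation above 0 over these 10 libraries, with a median of 0.339, and the pair Fosl2 and Egr1 had the highest at 0.858. The genes most like the mean of the standardised members among 12323 genes were Coq10a (r = 0.978), Trim47 (0.971), Ubxn6 (0.963), Zbtb42 (0.960), Tab1 (0.956) and Rnpepl1 (0.953). Without the shallow 9-cis retinoic acid replicate 3 their correlations were 0.917 to 0.959. Transcripts of all 6 had a GC content above the median of 50.1%, from 52.4% to 64.1%, as did those of all 10 members, from 51.9% (Fos) to 67.2% (Jund). The points share each library's depth and its dependence on base composition and transcript length. The part of each in these correlations was not tested.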

How the data were processed

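The authors deposited unnormalized counts of reads per Ensembl gene for 15 RNA sequencing libraries. The submitters' processing notes name HISAT2 2.2.1, FastQC, HTSeq and SAMtools 1.18, with mm10 as the build. For strand setting, annotation release and library kit, nothing is stated in the labels. The 5 categories of reads without a gene (18.1% to 63.0% of reads) stayed out of library sizes. Counts were filtered with filterByExpr (16736 genes), scaled by TMM and tested two-sided with edgeR 4.0.16 quasi-likelihood models in R 4.3.3 over all 15 libraries, with Benjamini-Hochberg adjustment over all genes and a threshold of 0.05. DESeq2 1.42.0 was an alternative, as were a library set term, RLE factors, no filter, a replicate block, the groups compared alone, the 10-library set alone and leaving out each library. The code was tested on simulated data. Set differences use log2 CPM with a prior count of 2, and promoter windows are from RefSeq. The members, gene lists, library set and tests were chosen with earlier results of these data known. Besides all 10 members, the text names list genes past the threshold, the 3 highest and 3 lowest of each list between the sets at a mean of at least 1 CPM, and the 6 genes most alike. Of 43432 identifiers 42462 matched a symbol. Markers of other cell types served only to describe the cells. A few list genes that this rule would name are not reported here.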

Additional observations from a re-analysis of the deposited data

How the results depend on the processing

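The number of members past the threshold was 0 in each of 8 contrasts under each of 39 recomputed fits (312 counts): RLE factors, no filter on low counts, DESeq2, the library set term, DESeq2 with that term, the 10-library set alone, the replicate block, only the groups compared, each of 15 libraries left out with and without the term, and 2 libraries left out together with the term. DESeq2 without the term gave no p-value for Ier3, Fos and Junb. The smallest adjusted p of a member over 3120 recomputed values was 0.225, for Egr1 in 9-cis retinoic acid against AM+CD with the term, when replicate 1 of AM580 and replicate 3 of 9-cis retinoic acid were both left out. Of those 3120 values 321 had the other sign, none of them past the threshold. The requirement for pairing by replicate number, every pair over 0.1, was not met: same-numbered libraries of different treatments correlated from -0.68 to 0.82 with a median of 0.385, over 0.1 in 20 of 30 pairs, against a median of -0.21 and 26 of 60 for differently numbered ones. With the replicate block 0 of 10 members were called in each contrast, and Ier3 in AM+CD against DMSO stood at 2.82, a fit in which the number 1 holds 4 of the 5 set libraries but replicate 2 that of AM+CD. The count of 6 members higher in the 5-library set stayed 6 under RLE factors, no factors and a prior count of 0.5. The set defined without listed genes held the same 5 libraries, so it gave the same count. The count was also 6 with each library left out. It was 6 too with AM580 replicate 1 and 9-cis retinoic acid replicate 3 left out together, an alternative chosen after seeing the data. Leaving out libraries only removes conditions, so these alternatives could not lower the count. The count of members below went from 0 to 1 (Ier2) with no factors and without AM580 replicate 1. Low counts limit Fosl1, and 3 libraries a group limit all intervals.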
